A study of Rattus norvegicus with 6 samples.

Results

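The circadian clock genes of the rat testis were compared between diabetic and non-diabetic rats. They are the rows of the deposited gene table whose symbol is Arntl, Clock, Npas2, Per1, Per2, Per3, Cry1, Cry2, Nr1d1 or Dbp. Each symbol labelled 1 row, so 10 of the 35291 rows were members, and all 10 passed the filter on low values, set at 0.5 FPKM averaged across the 6 samples, which kept 20338 genes. FPKM are fragments scaled for transcript length and library total, so levels can be set side by side between genes as well as between rats. The diabetic group was 3 male Sprague-Dawley rats, an outbred strain, that were fed a high-fat diet and then injected once with streptozotocin (STZ) at 35 mg/kg, which destroys the insulin-producing beta cells. The non-diabetic group was 3 Sprague-Dawley rats injected with citrate buffer, and the methods do not say whether these rats also received the high-fat diet. Testes were taken 8 weeks after STZ. The study calls the rats adult and gives no age in days or weeks, and the sources used here do not give the hour of the day at which the testes were collected. The labels number the samples within a group without saying that each is a separate animal, so p-values measure the spread between these samples, which are called rats below.

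The mammalian clock is a feedback loop of transcription. BMAL1, the product of Arntl, pairs with CLOCK or its paralog NPAS2 and switches on genes that carry E-box sequences, among them the Per and Cry genes, Nr1d1 and Dbp. The PER and CRY proteins then block the activators, and REV-ERB alpha, the product of Nr1d1, represses Arntl through ROR elements. In rhythmic tissues Arntl therefore peaks at about the opposite time of day from Nr1d1 and Dbp, and the ratio of these transcripts follows the hour of collection. The testis is known as a tissue in which clock transcripts cycle weakly or not at all, and PER1 and CLOCK are found in developing germ cells there.

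The sequence elements behind this wiring were searched in the RefSeq windows from 250 bases before to 50 bases after annotated gene starts (assembly GRCr8, where Arntl is listed as Bmal1). Windows were found for 9 of the 10 members. The search covered both strands for the E-box CACGTG, the variant CACGTT, the D-boxes TTATGTAA and TTACGTAA, to which DBP binds, and the ROR element. Each match is printed in 30 bases read along the strand of the gene, with the match in capitals, to show where letters known from the loop occur beside members. A match is a description and not a binding site. AACGTG is CACGTT read on the other strand.
Arntl ROR element, chr1:176766299-176766328: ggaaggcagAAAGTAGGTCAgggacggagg
Per2 CACGTT, chr9:99497038-99497067: aacgcgcgcggtCACGTTttccactatgtg
Per2 D-box, chr9:99497167-99497196: ccatgtgcgtcTTATGTAAagagagcgacg
Cry2 CACGTT, chr3:98860632-98860661: acacatggtgggAACGTGagggggcggggc
Nr1d1 CACGTT, chr10:84231969-84231998: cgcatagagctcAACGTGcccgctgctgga
Nr1d1 E-box, second annotated start, chr10:84229628-84229657: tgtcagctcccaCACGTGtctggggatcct
The Arntl gene lies on the plus strand and the other 3 genes on the minus strand. Of all 33469 windows, 6.42% held CACGTG, 4.83% held CACGTT, 0.893% held TTATGTAA, 0.120% held TTACGTAA and 0.176% held the ROR element. The windows of Clock, Npas2, Per1, Per3 and Dbp held none of these letters, which says nothing of elements elsewhere in those genes.

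The tissue was that of a testis by its markers. The spermatid gene Prm1, which encodes a protamine, was at 3227 to 4072 FPKM in the 6 rats, and 4 spermatocyte markers summed to 204 to 238 FPKM with diabetes and 210 to 240 FPKM without. The files do not give reads per library. The relative depth read from repeated ratios of low values was 0.893 to 1.09 of the mean. No library stood apart, with correlations across genes of 0.958 to 0.965 within groups and 0.957 to 0.966 between groups.

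None of the 10 clock genes passed the criterion, which asks for a log2 fold change of 1 or more in size together with p below 0.05 before adjustment. Of all genes tested, 1.24% passed it, 0.846% as lower and 0.398% as higher in the diabetic rats. The adjusted p from limma ran from 0.633 for Dbp to 0.999 for Nr1d1, and 0.0344% of all genes tested had an adjusted p below 0.05. The largest difference was that of Dbp, a log2 fold change of -0.40. The 95% interval of the difference lay between -1 and 1 for each of the 10 genes, and its farthest bound was the -0.75 of Dbp. A change of the size that the criterion asks for thus lay outside the interval of each member. Dbp alone had an unadjusted p below 0.05 in limma. Of all genes tested 7.46% did, 4.99% as lower and 2.47% as higher in the diabetic rats. Of the 10 genes, 8 had a negative and 2 a positive log2 fold change, with a median of -0.056 beside -0.021 over all genes tested.

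The values of the 3 diabetic rats lay wholly to one side of those of the 3 non-diabetic rats for 5 of the 10 members, against 13.0% of all genes tested. Arntl, Npas2, Cry1 and Dbp were lower in every diabetic rat, where 8.42% of all genes tested were, and Cry2 was higher, where 4.56% were. These shares are a description of a list chosen with earlier results known. The exact permutation test gives p = 0.1 for each of the 5 genes, the smallest that 3 rats against 3 allow, two-sided.

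**Figure D1:**
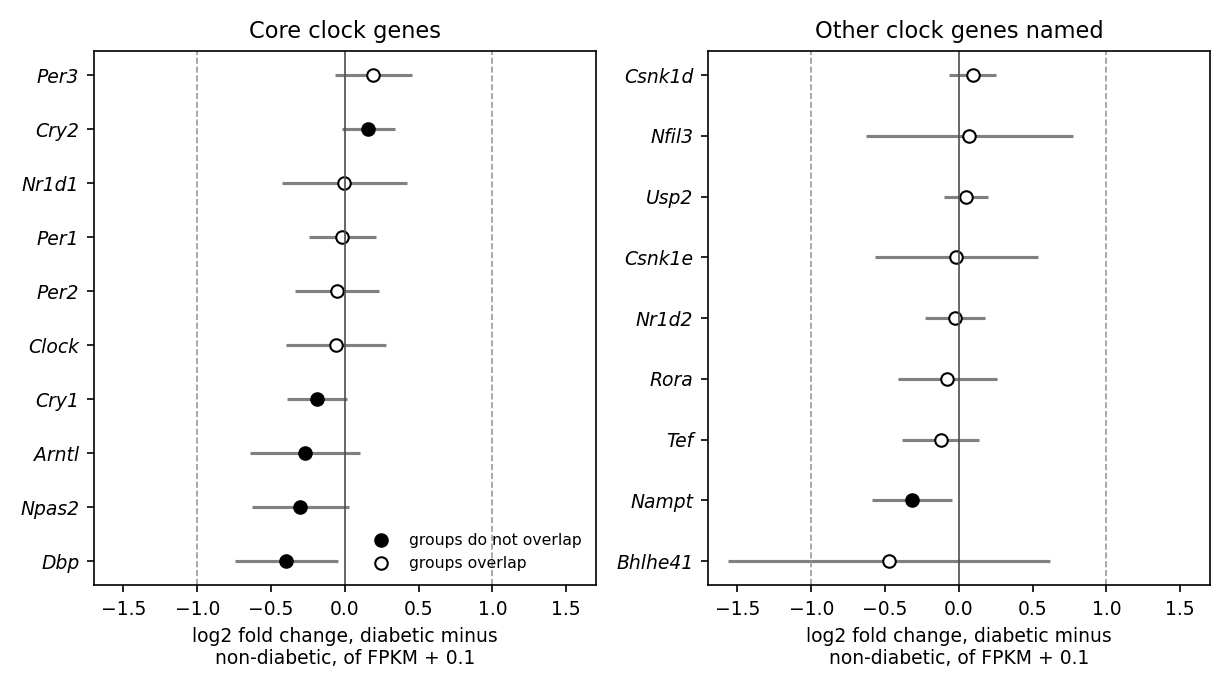
Log2 fold change of log2(FPKM + 0.1), diabetic minus non-diabetic, with its 95% interval from limma, for the 10 core clock genes (left) and 9 of the 20 other clock genes tested, those named in the text (right). Filled points are genes whose groups do not overlap, dashed lines mark the criterion of -1 and 1, and among the core genes every interval stays inside them.

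The levels of the members spanned an order from Per1, at a mean of 19.2 FPKM over the 6 rats, down to Arntl at 1.79 FPKM. Cry2 followed Per1 at 14.5 FPKM, then Per3 at 10.6 FPKM and Cry1 at 6.46 FPKM. The ranges over the 6 rats did not overlap between any neighbours among these 4 genes, nor between Cry1 and the next gene, Clock. Clock at 4.07 FPKM, Dbp at 3.85 FPKM and Per2 at 3.48 FPKM had ranges that overlapped from neighbour to neighbour. Per2 lay above the range of Nr1d1, which was at 2.28 FPKM and overlapped with Npas2 at 2.10 FPKM, as Npas2 did with Arntl. The repressors Per1, Cry2, Per3 and Cry1 were thus listed above each of the 3 activators in every rat, and the activator Arntl had the lowest mean.

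**Figure D2:**
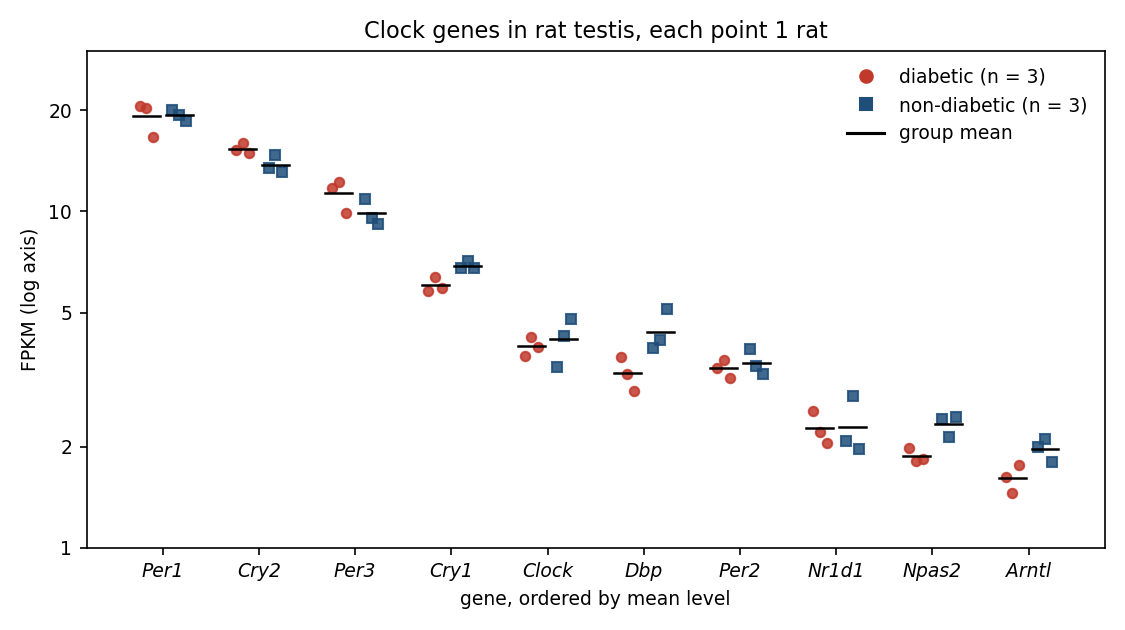
FPKM of the 10 clock genes in each rat on a log axis, ordered by mean level, with diabetic rats as circles, non-diabetic rats as squares and group means as bars (n = 3 each). Per1 sits at 16.6 to 20.5 FPKM and Arntl at 1.46 to 2.10 FPKM, and the groups are apart for Cry2, Cry1, Dbp, Npas2 and Arntl.

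Arntl, which encodes the core activator BMAL1, is listed as ENSRNOG00000014448. It was at 1.63, 1.46 and 1.76 FPKM across the diabetic rats, beside 1.995, 2.10 and 1.80 FPKM across the non-diabetic ones. The groups did not overlap, but the highest diabetic and the lowest non-diabetic rat were close. The means were 1.62 ± 0.153 and 1.97 ± 0.153 FPKM (SD, n = 3 each). On the log2 scale the difference was -0.27 (standard error 0.16) with a 95% interval of -0.64 to 0.10 (adjusted p = 0.790 from limma).

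Npas2 (ENSRNOG00000013408), the paralog that can stand in for Clock, was at 1.98, 1.81 and 1.83 FPKM across the diabetic rats, beside 2.42, 2.13 and 2.45 FPKM across the non-diabetic ones. Every diabetic rat was below every non-diabetic rat. This gave a log2 fold change of -0.30 (standard error 0.14) with a 95% interval of -0.63 to 0.028 (adjusted p = 0.711 from limma). Clock itself (ENSRNOG00000002175), the usual partner of BMAL1, was at 3.72, 4.24 and 3.95 FPKM across the diabetic rats, beside 3.45, 4.25 and 4.80 FPKM across the non-diabetic ones. The non-diabetic rats held both the lowest and the highest value, so that the groups overlapped. Clock differed by -0.059 on the log2 scale (limma, adjusted p = 0.964), and the sign turned to 0.048 without non-diabetic replicate 3.

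Among the repressors, the Period genes encode the proteins that accumulate over the day and, bound to the cryptochromes, shut off the activators. Per1 (ENSRNOG00000007387) was at 20.5, 20.2 and 16.6 FPKM across the diabetic rats, beside 20.0, 19.4 and 18.5 FPKM across the non-diabetic ones. Diabetic replicate 3 was the lowest of the 6 and the other diabetic rats were the highest. Its log2 fold change was -0.017, with a 95% interval of -0.24 to 0.21. It was 0.079 without diabetic replicate 3 and 0.012 under median-ratio scaling, so no direction can be given for Per1.

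Per2 (ENSRNOG00000020254), whose promoter window held both the E-box variant and the D-box, was at 3.43, 3.63 and 3.19 FPKM across the diabetic rats, beside 3.89, 3.48 and 3.28 FPKM across the non-diabetic ones. The groups overlapped, with a log2 fold change of -0.053 and a 95% interval of -0.34 to 0.23. Per3 (ENSRNOG00000018413) was at 11.8, 12.2 and 9.91 FPKM across the diabetic rats, beside 10.8, 9.55 and 9.17 FPKM across the non-diabetic ones. The highest values were those of diabetic rats, but diabetic replicate 3 lay below non-diabetic replicate 1. Per3 had a log2 fold change of 0.19 with a 95% interval of -0.067 to 0.45 (adjusted p = 0.787 from limma).

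The cryptochromes are the strongest repressors of the loop. Cry1 (ENSRNOG00000006622) was at 5.80, 6.40 and 5.91 FPKM across the diabetic rats, beside 6.76, 7.11 and 6.78 FPKM across the non-diabetic ones. All diabetic rats were lower, with a log2 fold change of -0.19 and a 95% interval of -0.39 to 0.018 (adjusted p = 0.711 from limma). Cry2 (ENSRNOG00000007478) was at 15.2, 15.9 and 14.9 FPKM across the diabetic rats, beside 13.4, 14.7 and 13.1 FPKM across the non-diabetic ones. All diabetic rats were higher, though the nearest rats of the groups were close. For Cry2 it was 0.16 with a 95% interval of -0.017 to 0.34 (adjusted p = 0.712 from limma). The paralogs thus lay in opposite directions, each by less than the criterion and without passing the adjusted test.

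Since their values come from the same libraries, the ratio of Cry2 to Cry1 within a rat does not depend on the scaling between libraries. It is 1 of 8 ratios computed, was chosen after the values were seen and is given with no test. On the log2 scale the ratio was 1.37, 1.30 and 1.32 in the diabetic rats and 0.978, 1.03 and 0.942 in the non-diabetic rats. That the groups were apart restates the opposite directions of the paralogs. Cry2 was 2.52 times as abundant as Cry1 in the diabetic rats and 1.98 times as abundant in the non-diabetic rats, as geometric means. The difference in the log2 ratio was 0.35, and 0.315 with a pseudocount of 1. Of the 8 ratios, 3 had groups that did not overlap, the others being Per3 to Arntl with a difference of 0.46 and Per3 to Per2 with 0.25. How many pairs of all genes tested separate in this way was not computed. Several of the 8 ratios share a gene, so the count is a description only.

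Nr1d1 (ENSRNOG00000009329), the gene of the repressor REV-ERB alpha, was at 2.54, 2.21 and 2.05 FPKM across the diabetic rats, beside 2.08, 2.82 and 1.97 FPKM across the non-diabetic ones. The groups overlapped and the means were 2.27 ± 0.250 and 2.29 ± 0.462 FPKM (SD, n = 3 each). On the log2 scale Nr1d1 differed by -0.0021 with a 95% interval of -0.43 to 0.42 (adjusted p = 0.999 from limma), and its sign turned to 0.15 without non-diabetic replicate 2. In RefSeq the gene overlaps Thra, a thyroid hormone receptor gene, and the sources used here do not say that reads were counted by strand. Reads of Nr1d1 and Thra in the shared stretch cannot be told apart here, and Thra was at a similar level, 1.26 to 2.32 FPKM over the 6 rats. Cry1 also overlaps a provisional protein-coding gene, LOC120093541, and Clock, Npas2, Per2 and Cry2 overlap lncRNA loci, which for Cry2 is LOC102546693. The same limit holds for these 5 genes and for the ratio of Cry2 to Cry1.

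Dbp (ENSRNOG00000021027) encodes a PAR bZIP transcription factor that carries the clock's rhythm to its output genes, and its transcript has among the widest daily swings in liver and other tissues. It was at 3.70, 3.28 and 2.93 FPKM across the diabetic rats, beside 3.91, 4.13 and 5.12 FPKM across the non-diabetic ones. Every diabetic rat was lower, diabetic replicate 1 and non-diabetic replicate 1 being close. The means were 3.30 ± 0.385 and 4.39 ± 0.644 FPKM (SD, n = 3 each). Dbp had a log2 fold change of -0.40 (standard error 0.15) with a 95% interval of -0.75 to -0.048, a level of 0.759 times that of the non-diabetic rats. The unadjusted p from limma was 0.0309 and the adjusted p was 0.633, so Dbp did not pass. The unadjusted p was above 0.05 without diabetic replicate 2, without diabetic replicate 3 and without non-diabetic replicate 3, the rat with the highest Dbp. The adjusted p from limma was 0.892, 0.683 and 0.734 in these fits. With the replicate number as a block the unadjusted p was above 0.05 as well.

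The ratios of Dbp and of Nr1d1 to Arntl, which follow the hour of collection in rhythmic tissues, were taken in each rat, with no test. The log2 ratio of Dbp to Arntl was 1.14, 1.12 and 0.699 in the diabetic rats and 0.938, 0.941 and 1.46 in the non-diabetic rats. The groups overlapped, the lowest ratio being that of diabetic replicate 3 and the highest that of non-diabetic replicate 3. The log2 ratio of Nr1d1 to Arntl was 0.614, 0.569 and 0.208 in the diabetic rats and 0.058, 0.406 and 0.123 in the non-diabetic rats. These groups overlapped as well, and here non-diabetic replicate 3 was among the lowest, so the ratios to Arntl ordered the rats differently. The difference of the group means, diabetic minus non-diabetic, was -0.13 for Dbp to Arntl and 0.27 for Nr1d1 to Arntl.

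**Figure D3:**
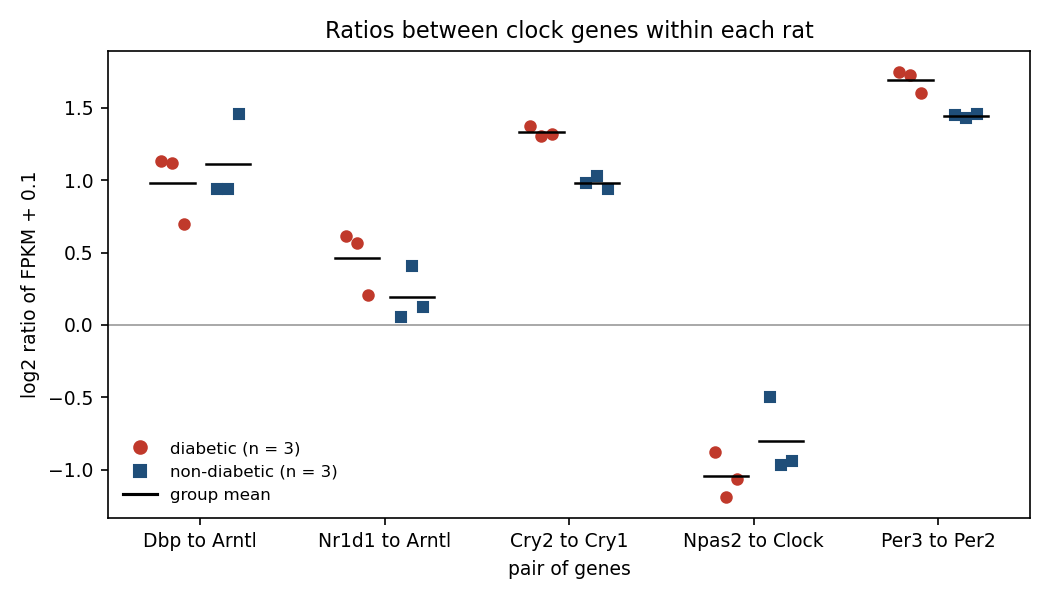
Log2 ratios of FPKM + 0.1 between pairs of clock genes within each rat, with diabetic rats as circles, non-diabetic rats as squares and group means as bars (n = 3 each). The groups overlap for Dbp to Arntl and Nr1d1 to Arntl, and they are apart for Cry2 to Cry1 and Per3 to Per2. Cry2 to Cry1, chosen after its values were seen, is 1.30 to 1.37 in diabetic and 0.942 to 1.03 in non-diabetic rats.

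The hour of collection was not tested, since no source used here gives it. The ratios cannot stand in for it in a tissue where clock transcripts cycle weakly or not at all.

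Rat by rat, no animal was high or low for all members. Diabetic replicate 3 had the lowest of the 6 values for 3 genes, Per1, Per2 and Dbp, and the highest for 0 genes. Non-diabetic replicate 3 had the lowest value for 3 genes, Per3, Cry2 and Nr1d1, and the highest for 3 others, Clock, Npas2 and Dbp. Non-diabetic replicate 2 had the highest value for Arntl, Cry1 and Nr1d1. On the log2 scale, the largest deviations from a gene's mean were those of Dbp, 0.43 in non-diabetic replicate 3 and -0.36 in diabetic replicate 3.

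**Figure D4:**
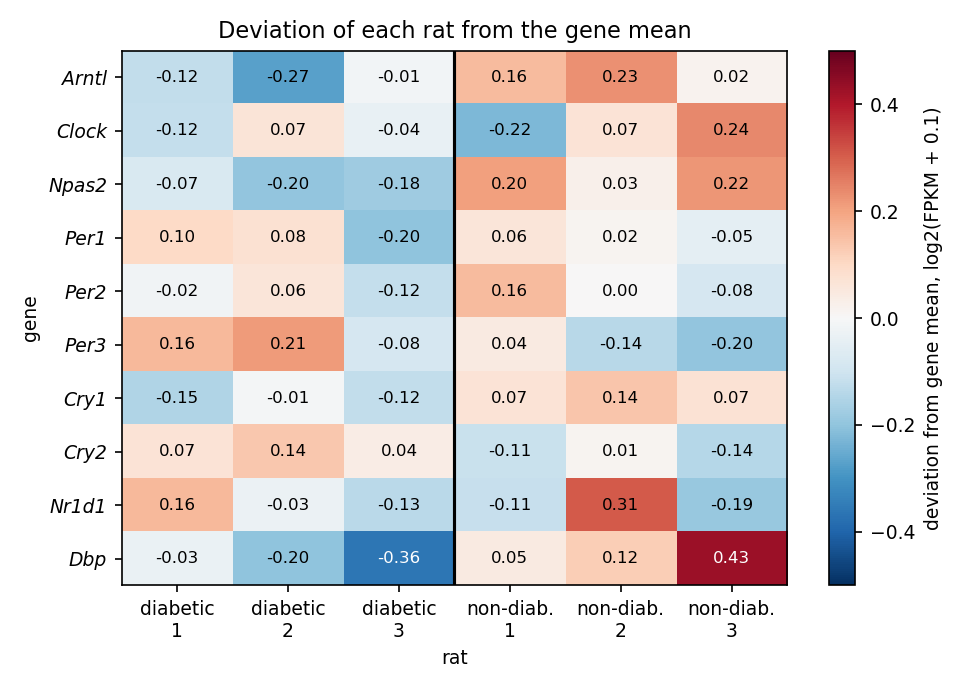
Deviation of each rat from the mean of the gene over 6 rats, in log2(FPKM + 0.1), for the 10 clock genes (rows) and 6 rats (columns). Cells run from -0.36 to 0.43, both in the row of Dbp, and most cells lie much nearer to 0.

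The clock genes differed in how much they varied between rats. The highest value was 1.75 times the lowest for Dbp, 1.44 times for Arntl and 1.43 times for Nr1d1, and it was 1.22 times for Cry2. Within groups, the standard deviation of log2 values was lowest for Cry1, at 0.059, and highest for Nr1d1, at 0.22, with a median of 0.12 over the 10 members. Genes tested with a mean of 1 to 30 FPKM, a range that holds all members, had a median of 0.18, and 7 of the 10 members lay below it. Clock, Dbp and Nr1d1 lay above it. Levels within this range were not matched.

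**Figure D5:**
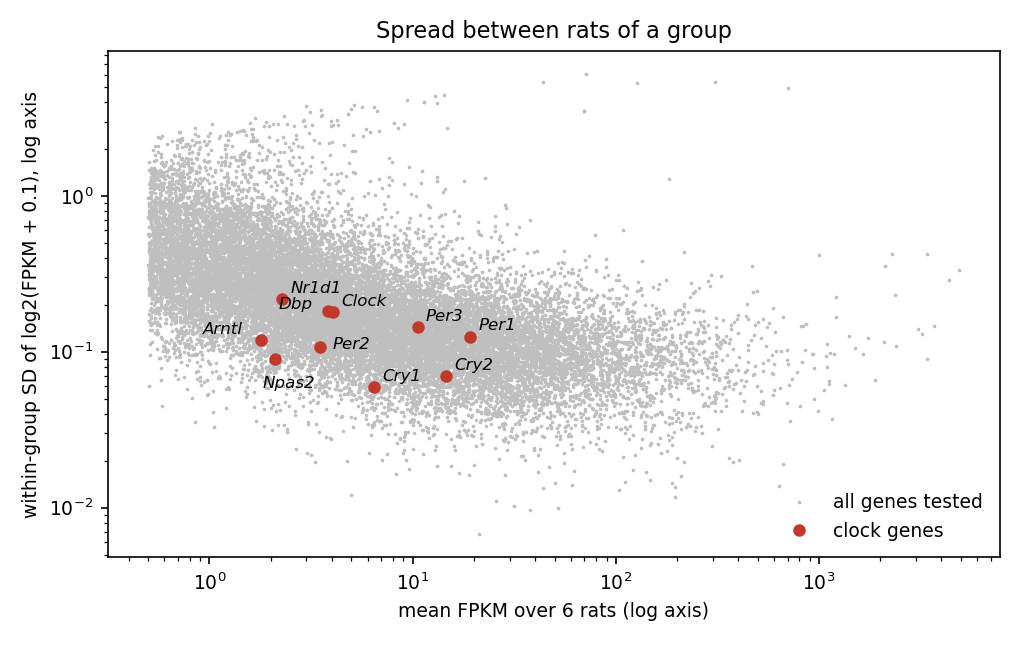
Within-group standard deviation of log2(FPKM + 0.1) against the mean FPKM over 6 rats, both on log axes, for all 20338 genes tested (grey) and the 10 clock genes (red). The clock genes lie between 0.059, Cry1, and 0.22, Nr1d1, within the cloud of genes of like level.

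The other genes of the clock pathway were taken from a list of 23, of which 20 reached the filter. None of the 20 passed the criterion, and the median log2 fold change was -0.022. Among these 20, 1 gene had diabetic values wholly to one side of the non-diabetic values, where 13.0% of all genes tested did. In limma that gene alone had an unadjusted p below 0.05, against 7.46% of all genes tested. It was Nampt, which encodes the rate-limiting enzyme of NAD salvage and is a clock output in several tissues. Nampt was at 6.09, 6.03 and 7.68 FPKM across the diabetic rats, beside 8.58, 7.99 and 8.01 FPKM across the non-diabetic ones. All diabetic rats were lower, with a log2 fold change of -0.32 and a 95% interval of -0.59 to -0.044 (unadjusted p = 0.0286 and adjusted p = 0.627 from limma). In 5 of the 6 fits that left out a rat, 0 of these genes had an unadjusted p below 0.05.

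Receptors that act on ROR elements were set beside Nr1d1. Nr1d2, the gene of REV-ERB beta, was at a mean of 8.89 FPKM with diabetes and 9.05 FPKM without, above its paralog Nr1d1. Rora, which encodes an activator at the same elements, had a log2 fold change of -0.078, and Rorb was below the filter. Of the relatives of Dbp, Tef was at 4.63 and 5.07 FPKM, a log2 fold change of -0.12 with groups that overlapped, and Hlf was below the filter. Nfil3, a repressor at D-boxes, was at 0.746 and 0.690 FPKM with a log2 fold change of 0.071.

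Among the modifiers, Csnk1d, the kinase gene whose product marks PER for turnover, was at 73.8 ± 4.31 FPKM with diabetes and 69.1 ± 3.51 FPKM without (SD, n = 3 each), while its paralog Csnk1e was at 0.757 and 0.770 FPKM. Usp2, a deubiquitinase gene, was the highest of the list at 189 and 183 FPKM. Of the 20 genes, 19 had a 95% interval of the log2 fold change between -1 and 1, and the exception was Bhlhe41, at 0.186 to 0.767 FPKM over the 6 rats. Arntl2, the paralog of Arntl, was listed at 0 in 4 of the 6 rats and at most at 0.0372 FPKM.

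Per1 also answers to handling and to corticosterone, so genes of both responses were set beside it. Of 11 immediate early genes 5 reached the filter, and 0 of them had an unadjusted p below 0.05 or groups that did not overlap. Fos was at 0.195 to 0.443 FPKM over the 6 rats. Of 8 glucocorticoid-responsive genes, all tested, 0 passed the criterion. An unadjusted p below 0.05 was found for 1 of the 8, against 7.46% of all genes tested. Groups did not overlap for 2 of the 8, against 13.0% of all genes tested. These 2 were Klf9 and Pdk4, both lower in the diabetic rats. The gene of the 8 with p below 0.05 was Pdk4, a regulator of fuel use, at 0.956, 0.779 and 0.751 FPKM across the diabetic rats, beside 1.30, 1.64 and 1.08 FPKM across the non-diabetic ones (adjusted p = 0.636 from limma). Fkbp5, a target of the glucocorticoid receptor, had a log2 fold change of -0.13 with groups that overlapped.

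Markers of Leydig cells, the testosterone-producing cells between the tubules, moved with the groups. Of 6 such markers 5 were listed and tested, 5 had groups that did not overlap, 4 passed the criterion and 1, Cyp17a1, had an adjusted p below 0.05. Of all genes tested, 13.0% had groups that did not overlap, 1.24% passed the criterion and 0.0344% had an adjusted p below 0.05. The summed level of the 5 Leydig markers was 26.8 to 55.4 FPKM with diabetes and 81.6 to 115 FPKM without, and none was at 0. In whole testis, fewer cells of a type and less RNA per cell cannot be told apart. Of 4 macrophage markers, 2 had groups that did not overlap, both lower in the diabetic rats, and the summed level was 106 to 113 FPKM with diabetes and 79.2 to 120 FPKM without. Most of that sum was Aif1, whose log2 fold change was 0.29 with groups that overlapped. The other 3, Cd68, Cd163 and Csf1r, summed to 2.98 to 4.40 FPKM with diabetes and 5.21 to 6.18 FPKM without. Of 4 spermatogonial markers 1 had groups that did not overlap, Kit, which was lower in the diabetic rats, and the summed levels were 11.8 to 17.2 and 14.1 to 16.2 FPKM. Of 6 Sertoli cell markers 1, Wt1, had groups that did not overlap, higher in the diabetic rats, and the list summed to 280 to 294 and 234 to 295 FPKM, most of it Clu. The groups overlapped for each of the 4 spermatocyte and 5 spermatid markers, each of 4 peritubular markers and the 1 endothelial marker tested of 4. The part of these cells in the lower values of Arntl, Npas2, Cry1 and Dbp was not tested.

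Dbp had the largest standard deviation of the members over the 6 rats, 0.27 on the log2 scale, and its pattern was compared with that of all genes tested. The genes most like it were Vps45, which encodes a protein of vesicle sorting, with a Pearson correlation of 0.993 over 6 rats, an assembled locus without a symbol at 0.990, and LOC102551255 at 0.985. Of the 20338 genes tested, 133 besides Dbp reached a value of 0.9 or more. How many would do so with no relation to Dbp was not computed. None of these correlations is a test, and the points share their libraries.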

How the data were processed

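RNA-Seq values of testis from 3 diabetic and 3 non-diabetic rats were used. Per the study's methods, the authors ran FastQC for read quality, screened rRNA with BWA, mapped with STAR, and built transcripts in StringTie. What they deposited is 1 FPKM value for each gene or assembled locus and sample. The genome build, tool versions and strand setting are not given in the sources used here. The study's own screen used a model of counts, which these values do not allow, so they were compared with limma 3.58.1 (lmFit, eBayes with a mean-variance trend, R 4.3.3) on log2(FPKM + 0.1), two-sided, with Benjamini-Hochberg adjustment over 20338 genes, and no block for the replicate number. Log2 fold changes on this scale understate the change of low genes. Intervals of 95% are not adjusted. The steps were tested on simulated data. Because FPKM are not counts, the depth in reads is unknown and the precision rests on the number of rats. The members, lists and tests were chosen with earlier results of these data known. Named genes were all members, other clock genes with an unadjusted p below 0.05 or discussed beside a member by role, and the 3 genes most like the member that varied most. Genes named from the side lists and cell type lists, and Thra, fall outside this rule and were chosen after their values were seen, except Leydig markers, which the rule allows. The alternatives were other pseudocounts, filters, scalings and eBayes settings, a replicate block, protein-coding genes only and leaving out each rat. No member symbol labelled more than 1 row, so rows were not summed. Promoter windows were read in Python 3.11.15. Some genes of the lists are counted but not reported here by name.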

Additional observations from a re-analysis of the deposited data

How the results depend on the processing

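None of the 10 members passed the criterion under any of the 15 alternatives run, nor did any of the other clock genes. The 95% interval of each of the 10 members stayed between -1 and 1 in all of them, with a farthest bound of 0.88 in absolute size. The direction of Arntl, Npas2, Per3, Cry1, Cry2 and Dbp was the same in all 15. That of 4 members with small differences turned. The filters, the eBayes setting, the replicate block and the restriction to protein-coding genes leave a log2 fold change as it is. Only the pseudocounts, the scalings and leaving out a rat could turn a direction. Under median-ratio scaling the log2 fold change was 0.012 for Per1 and 0.026 for Nr1d1. Omitting single rats, the values spanned -0.071 to 0.079 for Per1, -0.19 to 0.048 for Clock, -0.11 to 0.014 for Per2 and -0.097 to 0.15 for Nr1d1. The number of members with an unadjusted p below 0.05, counted after the data were seen, was 1. It was 2 under median-ratio scaling (Dbp and Cry2), 3 with eBayes without the trend (Dbp, Npas2 and Arntl) and 2 among protein-coding genes only (Dbp and Npas2). With the replicate block it was 0, and when single rats were omitted it was 0 to 2. It was 0 without diabetic replicate 2 and without non-diabetic replicate 3, and the 1 gene without diabetic replicate 3 was Per3. Of all genes tested, 7.46% had an unadjusted p below 0.05 from limma in the main fit. That share was not computed for the alternatives, so the counts of members in them are a description only. The block changed no member's call by the criterion, and 284 of all genes passed with it. Deviations of same-numbered rats correlated at 0.11, 0.015 and 0.098. Diabetic replicates 1 and 3 correlated best with the non-diabetic rat of the same number. Diabetic replicate 2 correlated best with non-diabetic replicate 3, at 0.032. These values do not settle whether the numbers pair the samples. The main fit had no block because the rats of the 2 groups are different animals. The smallest adjusted p of a member was lowest, 0.428, among protein-coding genes and highest, 0.892, without diabetic replicate 2. The number of members whose groups did not overlap was 5 in each alternative that kept all 6 rats and 5 to 7 when single rats were omitted. Among alternatives with all 6 rats, only the scalings could change this number, which was taken from FPKM without a pseudocount. Leaving out a rat cannot make separate groups overlap, so the number could not fall below 5 there. The share over all genes tested was not computed for these fits. With a pseudocount of 1, the log2 ratio of Dbp to Arntl was 0.838 in diabetic replicate 1, 0.801 in diabetic replicate 2 and 1.13 in non-diabetic replicate 3. Over all genes tested, 253 passed the criterion, with 91 at a pseudocount of 1, 621 without a filter, 90 among protein-coding genes only and 246 to 335 with each rat left out. Except for the pseudocount and the number of genes tested, the cause of these shifts was not tested.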
